A study of Macaca mulatta with 6 samples.

Results

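Thrombospondins and the cell-surface receptors that bind them were followed after 4 hours of human serum in RF/6A, a cell line from rhesus macaque choroid that its label gives as endothelial. The genes were taken by symbol from the deposited table of transcripts, and FPKM, which counts sequenced fragments per length of transcript and per depth of library, was summed over the transcripts of each symbol. Of 7 genes named by this rule, 6 were found among 24941 genes, with 11 transcripts between them: THBS1, THBS2, THBS3, THBS4 and COMP, which encode the thrombospondins, and CD47, which encodes a receptor. CD36, another receptor, was not analysed here. Of the 6 genes, 4 had a mean of at least 1 FPKM and were tested, and THBS4 and COMP fell under that level.

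Confluent cells on porous inserts received either serum whose complement had been inactivated by heating or normal serum, in each case at 50% of the medium and from human donors. Complement left active in normal serum can end in the membrane attack complex, which perforates membranes. There were 3 libraries of polyadenylated RNA per treatment, 6 in all, and nothing in the labels says whether separate cultures gave them, so every p-value is read against a library spread that may be technical. No group had complement blocked in another way, so complement and any other serum component that heating alters cannot be told apart.

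Thrombospondins are secreted glycoproteins that join cells, growth factors and matrix. Thrombospondin-1 and thrombospondin-2, the trimeric members, carry the type 1 repeats that bind CD36 on endothelial cells and inhibit angiogenesis, and thrombospondin-1 can also activate latent TGF-beta. The other members, thrombospondin-3, thrombospondin-4 and COMP (cartilage oligomeric matrix protein), form pentamers and lack type 1 repeats. CD47 is a membrane protein of the immunoglobulin superfamily that binds the C-terminal part of thrombospondin-1. It limits nitric oxide signalling in vascular cells and, by binding SIRPA on phagocytes, marks a cell as self. In the choroid, thrombospondin-1 is known as one of the factors that hold back vessel growth.

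The libraries totalled between 852828 and 1016474 FPKM. Over transcripts of at least 300 bases, the totals were 775915 to 780423 FPKM in heat-inactivated serum and 848315 to 891786 FPKM in normal serum. The main test did not rescale for this difference. Depth read from the lowest values lay between 13960000 and 17880000 fragments, approximate for the replicate 1 library of each treatment. Those replicate 1 libraries stood apart, since 55.5% and 49.7% of their low values came out as whole fragments within 0.1, against 100% in the other 4 and 20% by chance. Across all genes, 6381 of 11819 tested (54.0%) passed an adjusted p of 0.05 in limma, 27.8% higher in normal serum and 26.1% lower. The markers do not establish the label of the line, and CDH5 (VE-cadherin) was listed at 0 in every heat-inactivated serum library. Of 13 endothelial markers found, 5 reached a mean of 1 FPKM over all libraries. Of those 5, 4 were higher in normal serum and 0 lower (median log2 change 0.71), with PECAM1 going from 3.35 ± 0.288 to 7.95 ± 0.634 FPKM. The 13 summed to between 79.3 and 80.6 FPKM in the control and between 103 and 111 FPKM in normal serum. Most of each sum came from ENG (means of 61.2 and 74.2 FPKM). The 8 endothelial markers with a mean under 1 FPKM over all libraries were not tested and moved both ways. Among them, KDR fell from a mean of 0.370 to 0.105 FPKM without overlap, while VWF rose without overlap. The 12 mural and fibroblast markers summed to between 7754 and 8275 FPKM in heat-inactivated serum and between 4479 and 4700 FPKM in normal serum. COL1A1 (means of 3870 and 2026 FPKM) and COL3A1 (means of 1888 and 795 FPKM) gave most of each sum. Of the 10 tested, 8 were lower in normal serum and 2 higher.

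THBS1 was the most abundant of the thrombospondins in both treatments and the only tested member that was higher in normal serum. It is annotated on chromosome 7 as 1 transcript of 3904 bases. No other gene overlaps it in the RefSeq table of the assembly T2T-MMU8v2.0, which served here for names and overlaps only. The genome build of the deposited transcripts was not given, so overlaps may differ in it. In heat-inactivated serum THBS1 stood at 211, 239 and 230.4 FPKM in replicates 1 to 3. In normal serum it stood at 789.6, 776 and 812 FPKM. Every normal serum library was thus far above every control library, with little spread on either side. The means were 227 ± 14.3 and 792 ± 18.5 FPKM (SD, n = 3 per treatment), a 3.49-fold difference. On the log2(FPKM + 1) scale used for testing, THBS1 was higher by 1.80 ± 0.06 (SE), with a 95% interval from 1.65 to 1.95 (limma, adjusted p = 2.12e-06).

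The members' levels in each library are drawn in the plot of 6 panels.

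**Figure D1:**
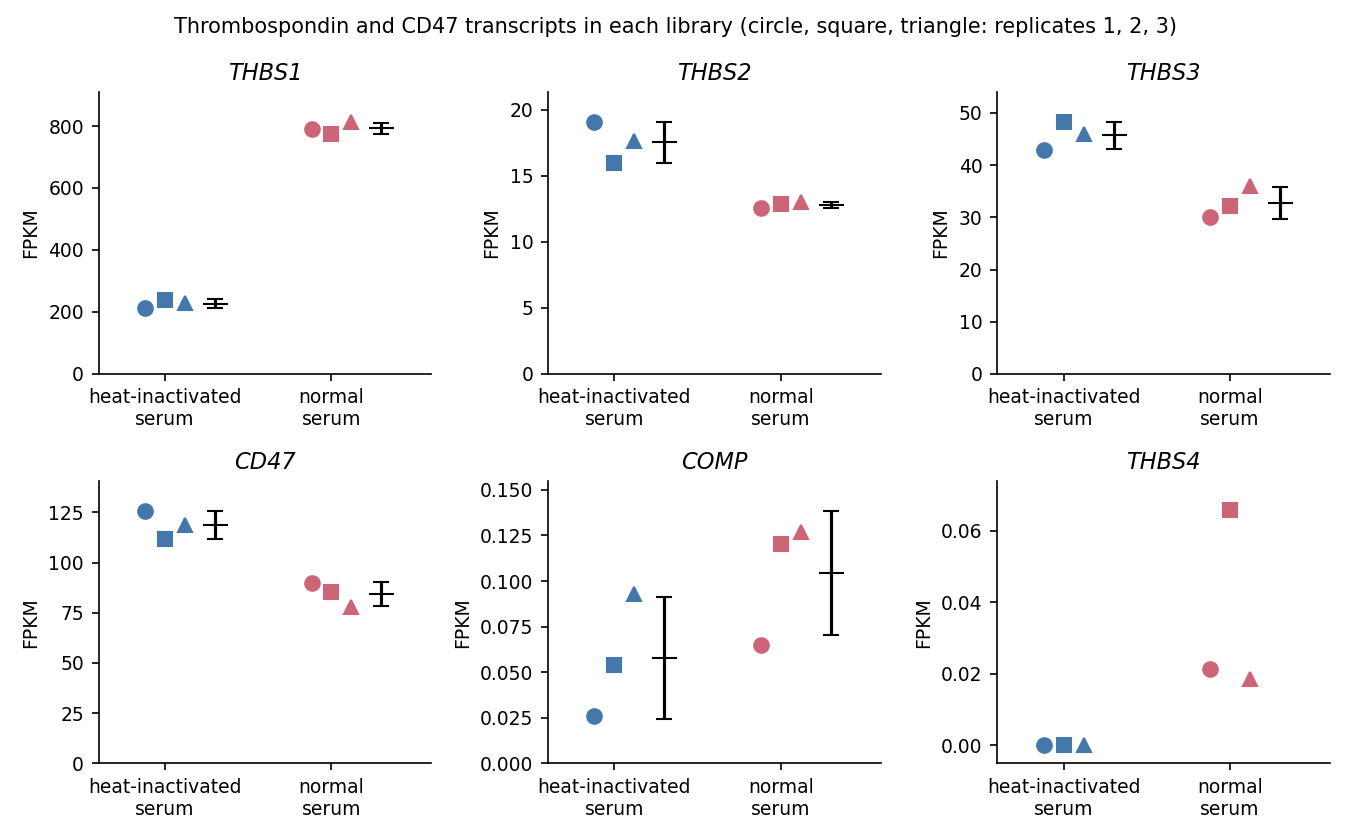
FPKM of each gene in each library (y axis, one panel per gene with its own scale), with heat-inactivated serum in blue and normal serum in red. Circles, squares and triangles are replicates 1, 2 and 3, and the black bars beside them show the mean and SD of 3 libraries (not drawn for THBS4, listed at 0 in the control). THBS1 rises from a mean of 227 to 792 FPKM, THBS2, THBS3 and CD47 lie lower in normal serum without overlap, and COMP and THBS4 stay below 0.15 FPKM.

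Few genes moved as far as THBS1. It ranked 135 of 11819 by the size of the rise, and 98.5% of the genes tested had a smaller change in either direction. Among all genes, 3.47% were called higher by at least 1 on the log2 scale. By level, THBS1 ranked 419 in heat-inactivated serum and 190 in normal serum. The gain of 566 FPKM was the 45th largest in the table, per length of transcript. Read back into fragments, THBS1 held between 12490 and 14953 per library in heat-inactivated serum and between 41271 and 53942 in normal serum, so counting error is small beside the spread of the libraries. Compared within replicate numbers, the log2 change was 1.90, 1.69 and 1.81. In the authors' deposited table the log2 fold change of the transcript is 1.80 with a q-value of 0.000223.

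Platelets store thrombospondin-1, and human serum is made from clotted blood, so platelet and blood cell markers were read in the same libraries. Of the 8 platelet and megakaryocyte markers found, 0 reached a mean of 1 FPKM, and together they summed to between 1.14 and 1.58 FPKM in heat-inactivated serum and between 0.779 and 0.885 FPKM in normal serum. PPBP was listed at 0 in all libraries, and PF4 in all normal serum libraries. Among single platelet markers, ITGA2B fell from a mean of 0.378 to 0.0626 FPKM without overlap. TUBB1, at means of 0.0541 and 0.0746 FPKM, overlapped between treatments. The part of the platelet markers in the THBS1 result was not tested. Leukocyte markers summed to between 7.57 and 10.5 FPKM and between 5.42 and 8.03 FPKM, most of it from LYZ (means of 7.82 and 5.17 FPKM), with PTPRC (CD45) at means of 0.0234 and 0.00532 FPKM. Erythroid markers did not pass 0.0557 FPKM in any library.

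THBS2 and THBS3 went the other way. THBS2, the closest relative of THBS1 and likewise an inhibitor of angiogenesis, stands on chromosome 4 as 1 transcript of 3510 bases with no overlapping gene. It was at 19.0, 15.9 and 17.6 FPKM in heat-inactivated serum and at 12.5, 12.8 and 13.0 FPKM in normal serum. The lowest control library lay above the highest normal serum library, and the normal serum libraries were the tighter group. The mean fell from 17.5 ± 1.55 to 12.8 ± 0.22 FPKM, to 72.9% of the control. The log2 change was -0.42 ± 0.08 (95% interval from -0.60 to -0.24, limma, adjusted p = 0.00295). These levels rest on 858 to 1007 fragments per library in heat-inactivated serum and 587 to 770 in normal serum.

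THBS3, a pentameric thrombospondin of matrix, is on chromosome 1. It was at 42.9, 48.2 and 45.9 FPKM in heat-inactivated serum. In normal serum it was at 30.0, 32.1 and 36.0 FPKM, below all control libraries. THBS3 fell from 45.7 ± 2.67 to 32.7 ± 3.01 FPKM, to 71.6% of the control, with a log2 change of -0.47 ± 0.08 (95% interval from -0.67 to -0.28, limma, adjusted p = 0.00244). In the RefSeq table THBS3 is overlapped by a protein-coding gene (LOC717595) and a long noncoding RNA, and strand use is not stated, so reads of overlapping genes are not told apart here. In bulk RNA, a change in the number of cells of a type and a change in RNA per cell cannot be told apart. That holds for each fall described and for each rise, that of THBS1 among them.

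The 2 transcripts of THBS3 did not share the fall. The transcript of 3137 bases, which held nearly all of the gene's FPKM, stood at 42.1, 47.3 and 45.0 FPKM in heat-inactivated serum and at 28.1, 28.9 and 34.6 FPKM in normal serum. It fell by 0.54 on the log2 scale (limma over 15719 transcripts, adjusted p = 0.00609). Of all transcripts tested, 39.6% were called, 21.0% higher and 18.6% lower. The transcript of 2988 bases stood at 0.764, 0.877 and 0.927 FPKM in heat-inactivated serum and at 1.95, 3.22 and 1.35 FPKM in normal serum. Each normal serum library was above each control library, yet they differed from one another by more than the controls did. This transcript had a log2 change of 0.73 ± 0.24 and missed the threshold (limma, adjusted p = 0.0503), as it does in the authors' deposited table, with a q-value of 0.101. Its share of THBS3 was 1.78%, 1.82% and 2.02% in heat-inactivated serum and 6.50%, 10.004% and 3.76% in normal serum (exact permutation test, two-sided, p = 0.1, the smallest that 3 against 3 libraries can give).

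COMP and THBS4, the thrombospondins of cartilage and tendon, were close to absent. COMP, on chromosome 19, was at 0.0261, 0.0540 and 0.0929 FPKM in heat-inactivated serum. In normal serum it was at 0.0651, 0.120 and 0.127 FPKM. These values stand for 1 to 3 fragments per library in the control and 2 to 5 in normal serum, 6 and 11 in all, and the groups overlapped. THBS4, on chromosome 6 and overlapped by a long noncoding RNA in the RefSeq table, was listed at 0 in all heat-inactivated serum libraries. In normal serum it was at 0.0213, 0.0660 and 0.0186 FPKM, which is 1, 3 and 1 fragments. A count of 0 allows up to 3 fragments, or between 0.0592 and 0.0679 FPKM per control library, so a difference in THBS4 was not detectable at this depth. When genes under 1 FPKM were kept in the test, the adjusted p was 0.335 for THBS4 and 0.333 for COMP (limma). In the authors' deposited table both are marked as not tested.

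CD47 was the receptor measured, on chromosome 2 with 5 transcripts. Its gene level was 125, 112 and 119 FPKM in heat-inactivated serum. In normal serum the libraries stood at 89.6, 85.3 and 77.6 FPKM, all below the control. The mean fell from 119 ± 6.99 to 84.2 ± 6.07 FPKM, to 71.0% of the control, a log2 change of -0.49 ± 0.07 (95% interval from -0.67 to -0.31, limma, adjusted p = 0.00133). With THBS1 called higher and THBS2, THBS3 and CD47 called lower, 4 of 4 tested members passed, where 54.0% of all genes did. In 62.6% of all genes tested, as in these 4, the libraries of the treatments did not overlap (32.1% higher, 30.5% lower in normal serum).

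The fall in CD47 was carried by its main transcripts. The transcript of 1286 bases stood at 88.0, 80.3 and 85.4 FPKM in heat-inactivated serum and at 64.5, 57.0 and 54.6 FPKM in normal serum. The transcript of 1119 bases stood at 33.3, 28.8 and 30.9 FPKM and at 20.6, 24.5 and 20.7 FPKM. Both fell, by 0.52 and 0.48 on the log2 scale (limma over transcripts, adjusted p = 0.00344 and 0.00856). Their shares of CD47 barely moved, at 71.4% ± 1.09 and 69.7% ± 2.64 for the first and 26.1% ± 0.38 and 26.1% ± 2.88 for the second (exact permutation test, two-sided, p = 0.6 and 1). The transcript of 1397 bases, at 2.52 ± 0.82 and 3.04 ± 1.46 FPKM, did not pass (log2 change 0.15, limma, adjusted p = 0.759). Of the other transcripts, one of 1057 bases ranged from 0 to 1.01 FPKM and one of 969 bases was listed at 0 throughout. In the RefSeq table a protein-coding gene (LOC144339419) overlaps CD47.

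**Figure D2:**
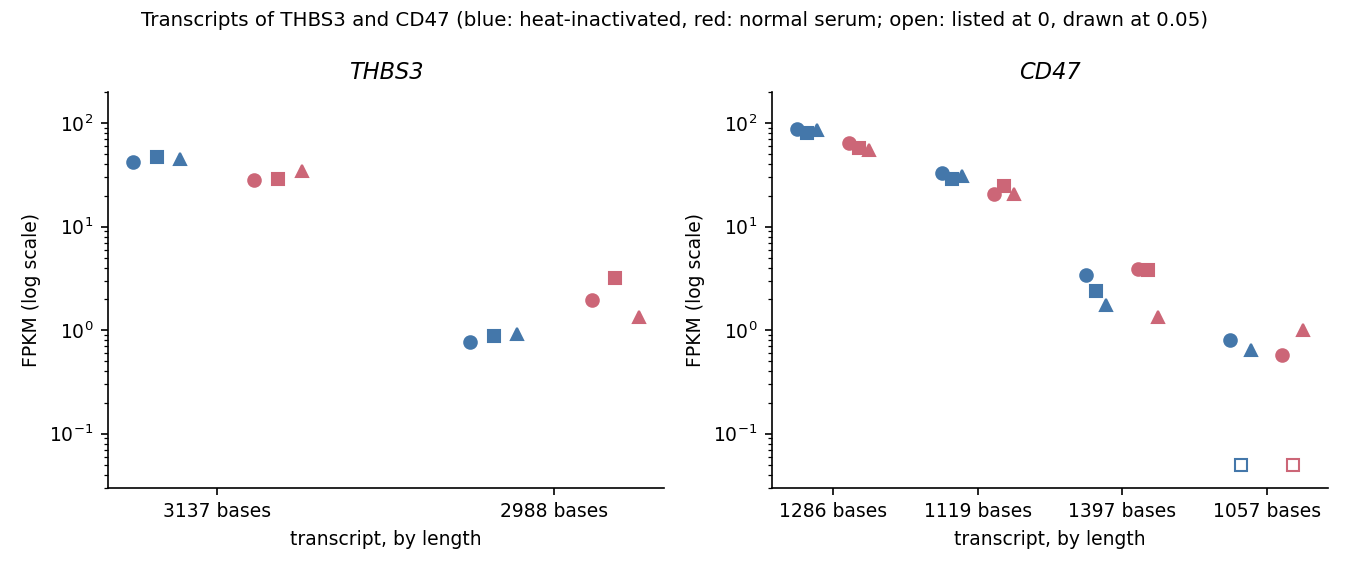
FPKM (log scale) of the transcripts of THBS3 and CD47, ordered by level and named by length, with heat-inactivated serum in blue, normal serum in red, and circles, squares and triangles for replicates 1, 2 and 3. Values listed at 0 are open and drawn at 0.05, and the CD47 transcript listed at 0 throughout is left out. The main transcripts of both genes lie lower in normal serum, while the THBS3 transcript of 2988 bases lies higher, between 1.35 and 3.22 FPKM.

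The 3 members that fell lay close together on the scale tested. Their log2 changes lay between -0.49 and -0.42, and each one's 95% interval held the values of the other two. The ratio of THBS3 to THBS2 was 2.25, 3.02 and 2.61 in heat-inactivated serum and 2.39, 2.51 and 2.77 in normal serum, overlapping (exact permutation test, two-sided, p = 0.9). Changes of this size were common: 63.4% of all genes had a smaller change than THBS2 and 70.1% a smaller one than CD47. By level CD47 ranked 852 of the genes tested in heat-inactivated serum and 1366 in normal serum.

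**Figure D3:**
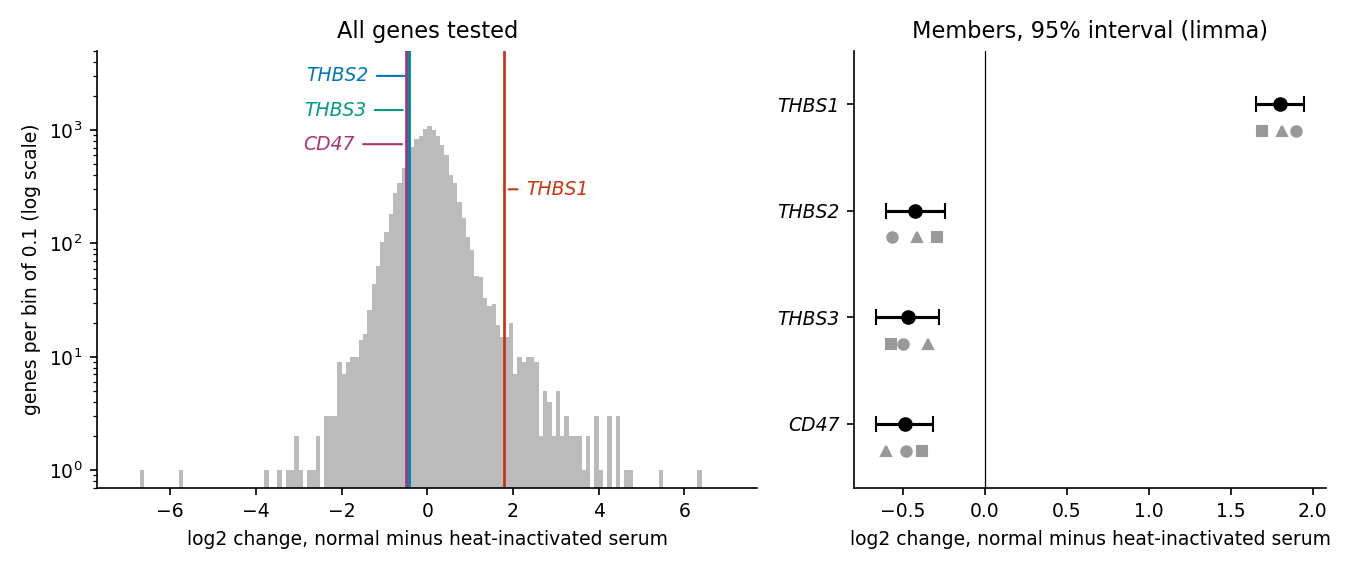
Left, the number of genes (log scale) in bins of log2 change between normal and heat-inactivated serum, with lines at the tested members. Right, each tested member's log2 change with its 95% interval (black) and, under it in gray, the change within replicate numbers 1 (circle), 2 (square) and 3 (triangle). THBS1, at 1.80, lies in the right tail, and THBS2, THBS3 and CD47 lie together between -0.49 and -0.42.

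Because THBS1 rose while its relatives fell, the make-up of the thrombospondin transcripts shifted. Summed over the 5 genes, thrombospondin FPKM was 273, 303 and 294 in heat-inactivated serum and 832, 821 and 861 in normal serum. THBS1 made up 77.3%, 78.8% and 78.4% of this sum in the control and 94.9%, 94.5% and 94.3% in normal serum. THBS3 went from 15.7% ± 0.15 to 3.90% ± 0.28 of the sum, and THBS2 from 6.07% ± 0.86 to 1.53% ± 0.03. The THBS1 share was 16.4 percentage points higher, with no overlap (exact permutation test, two-sided, p = 0.1, the smallest the design allows).

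Against THBS2, its nearest relative, THBS1 was in excess 11.1, 15.0 and 13.1 times in the control libraries and 62.9, 60.4 and 62.6 times in normal serum. Against its receptor CD47, THBS1 stood at 1.68, 2.14 and 1.94 times the FPKM in heat-inactivated serum. In normal serum the ratio was 8.81, 9.09 and 10.5. The log2 ratio of THBS1 to THBS2 thus differed by 2.23 between treatments and that of THBS1 to CD47 by 2.29, each without overlap (exact permutation test, two-sided, p = 0.1 for both, the smallest possible). FPKM compares RNA per length of transcript and says nothing of protein.

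**Figure D4:**
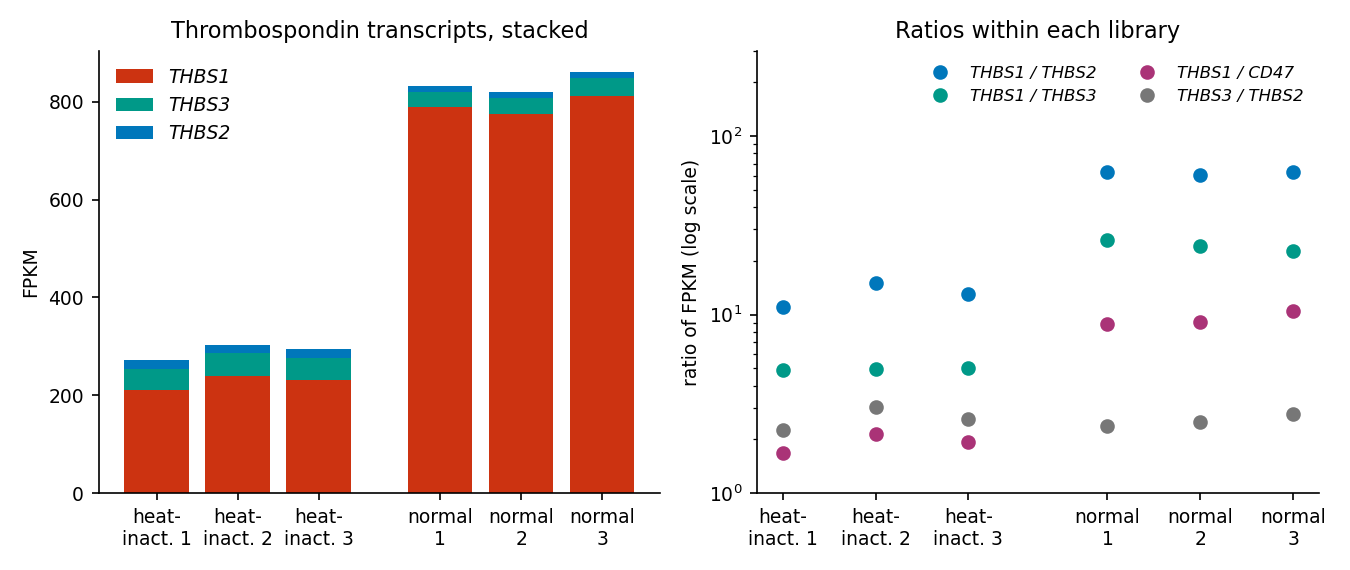
Left, FPKM of THBS1, THBS3 and THBS2 stacked for each library (COMP and THBS4, under 0.2 FPKM together, are left out). Right, ratios of FPKM within each library on a log scale. THBS1 makes up 77.3% to 78.8% of thrombospondin FPKM in heat-inactivated serum and 94.3% to 94.9% in normal serum, and its ratios to THBS2, THBS3 and CD47 rise in every normal serum library while THBS3 to THBS2 overlaps.

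In order of level, THBS1, CD47, THBS3 and THBS2 followed one another in both treatments, each lowest library above the highest library of the next gene. COMP and THBS4 came last and overlapped in normal serum. The gap between THBS1 and CD47 was 1.91-fold in heat-inactivated serum and 9.42-fold in normal serum, while those from CD47 to THBS3 (2.60-fold and 2.57-fold) and from THBS3 to THBS2 (2.60-fold and 2.56-fold) were alike.

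The genes with the most similar profile were found by the root mean square difference of log2(FPKM + 1) over the 6 libraries, after each gene's mean was subtracted. Nearest to THBS1 were E2F7, an E2F family repressor of cell cycle genes (difference 0.0408), SERTAD1, a regulator of CDK4 and E2F activity (0.0547), and F3, tissue factor, which starts coagulation (0.0630), where the median gene differed by 0.907. E2F7 went from 4.31 ± 0.418 to 17.3 ± 1.15 FPKM, SERTAD1 from 25.6 ± 0.466 to 89.8 ± 1.96 FPKM and F3 from 97.5 ± 7.72 to 359 ± 18.045 FPKM. Nearest to CD47 were TNFSF12-TNFSF13 (0.0199), TMEM205 (0.0263) and GAA, lysosomal alpha-glucosidase (0.0300). Nearest to THBS2 were DNAL4 (0.0120), C10ORF54 (0.0262) and P4HTM (0.0273), and nearest to THBS3 were PALM (0.0252), SMC5 (0.0330) and ZFYVE26 (0.0339). Many genes share these modest falls, and the ZFYVE26 call ended within replicates 2 and 3 (adjusted p = 0.0529), on leaving out heat-inactivated serum replicate 2 (adjusted p = 0.0564), after quantile normalization (adjusted p = 0.058) and with its highest transcript alone (adjusted p = 0.0589), as the P4HTM call did with its highest transcript (adjusted p = 0.292, limma throughout).

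Genes listed as integrin, proteoglycan and lipoprotein-receptor partners of thrombospondins moved both ways. Of 15 such genes, all tested, 6 were higher, 6 lower and 3 did not pass. Their median log2 change was 0.02 against 0.01 over all genes. Not all of the 15 encode cell-surface proteins, so these counts do not describe surface receptors alone. In this list and those that follow, the counts stand beside 54.0% of all genes called, 27.8% higher and 26.1% lower, and nothing particular to a list is read from them. The integrin chains ITGB3 (13.0 ± 0.671 to 23.6 ± 2.08 FPKM) and ITGA3 (25.6 ± 1.25 to 44.0 ± 1.06 FPKM), which form thrombospondin-binding integrins, rose 1.82-fold and 1.72-fold. SDC1, the heparan sulfate proteoglycan syndecan-1, rose 1.85-fold. LRP1, the endocytic receptor that clears thrombospondin-1 and thrombospondin-2, fell from 181 ± 12.5 to 97.7 ± 4.41 FPKM (limma, adjusted p = 6.58e-05). THBS1 and LRP1 thus moved in opposite directions in these libraries.

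Around CD47, 1 of 6 tested genes rose and 3 fell (all genes, 27.8% higher and 26.1% lower), with a median log2 change of -0.14. SIRPA, the ligand of CD47 on phagocytes, rose from 6.94 ± 0.467 to 10.4 ± 0.825 FPKM (limma, adjusted p = 0.00174). QPCTL, the enzyme that modifies the CD47 N-terminus where SIRPA binds, fell from 10.4 ± 0.458 to 8.34 ± 0.635 FPKM, and BNIP3, a mitochondrial partner of CD47, from 155 ± 19.2 to 119 ± 4.31 FPKM. PRKG1, the cGMP-dependent kinase of nitric oxide signalling, fell from 2.92 ± 0.551 to 1.75 ± 0.268 FPKM. NOS3, the endothelial nitric oxide synthase, named after its values were seen, was listed at 0 in the control and had a mean of 0.00493 FPKM in normal serum. QPCTL lost its call within replicates 2 and 3 (adjusted p = 0.0751), and also on leaving out 1 library: heat-inactivated replicate 1 (0.0536) or 2 (0.0553) or normal replicate 3 (0.0511). Without heat-inactivated replicate 2 the list had 1 lower call. PRKG1 lost its call on leaving out heat-inactivated replicate 2 (adjusted p = 0.0645) or 3 (0.058) or normal replicate 1 (0.0545), after quantile normalization (0.0537) and from its highest transcript alone (0.0892, limma adjusted p throughout).

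In the list for CD36 signalling and the death receptor route, 3 of 9 tested genes were higher and 4 lower, with a median of -0.02. Of all genes, 54.0% were called either way. Not every gene in this list acts downstream of CD36. The kinase LYN rose 1.43-fold. MAPK14, the p38 kinase, fell from 19.8 ± 1.53 to 11.7 ± 0.875 FPKM and FAS, the death receptor, from 10.4 ± 0.0991 to 6.71 ± 0.422 FPKM, while FASLG, its ligand and named after its values were seen, was listed at 0 in every library. The lower calls numbered 2 without heat-inactivated serum replicate 3, and likewise 2 among genes averaging 5 FPKM or more.

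Of 16 tested genes of latent TGF-beta activation, which thrombospondin-1 can drive, 6 were higher and 7 lower, with a median of 0.02. TGFB1, which encodes the cytokine itself, rose from 153 ± 5.65 to 334 ± 15.0 FPKM (2.18-fold, limma, adjusted p = 1.28e-05). The receptor gene TGFBR2 (115 ± 11.0 to 47.8 ± 3.24 FPKM) and the signal transducer SMAD3 (57.4 ± 2.35 to 26.1 ± 1.40 FPKM) fell.

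Genes of other proteins with thrombospondin type 1 repeats included 13 tested, of which 5 were higher and 7 lower, with a median of -0.42. CTGF, a matrix protein of the CCN family, rose from 889.5 ± 80.4 to 1712 ± 49.1 FPKM, and its relative WISP1 fell from 52.3 ± 6.60 to 21.9 ± 2.04 FPKM. The secreted protein SPON2 and the semaphorin SEMA5A fell to 0.450 and 0.536 of their control means. The higher calls were 3 within replicates 2 and 3 and 1 when every library was set to one FPKM total. Of 9 tested genes listed for modifying or folding such repeats, some of them general folding factors, 3 were higher and 3 lower. The median was 0.01. HSPA5, the chaperone BiP, rose 1.73-fold and PPIB, a prolyl isomerase, 1.28-fold. DPY19L3 and DPY19L4, genes of the C-mannosyltransferase family, fell to 0.667 and 0.545 of the control. PPIB lost its call with equal FPKM totals (adjusted p = 0.0804) and after quantile normalization (limma, adjusted p = 0.0633), each leaving 1 higher call in that list.

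Among proteases and matrix partners, 3 of 10 tested were higher and 4 lower, with a median of -0.10. ADAMTS1, which cleaves thrombospondin-1 and thrombospondin-2, rose from 10.3 ± 0.847 to 54.3 ± 1.11 FPKM, and MMP9, a gelatinase, from 2.30 ± 0.291 to 44.9 ± 4.95 FPKM. DCN (decorin) and COL1A1, a collagen chain, fell to 0.190 and 0.523 of the control. Both are also mural and fibroblast markers, of which 8 of 10 tested fell and 2 rose (all genes, 26.1% lower and 27.8% higher). The 2 that rose were CSPG4 (14.5 ± 0.222 to 40.9 ± 0.273 FPKM) and TAGLN (1013 ± 20.4 to 1367 ± 94.6 FPKM). These are the same libraries in which THBS2 and THBS3 fell. The part of these cell markers in the thrombospondin results was not tested.

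**Figure D5:**
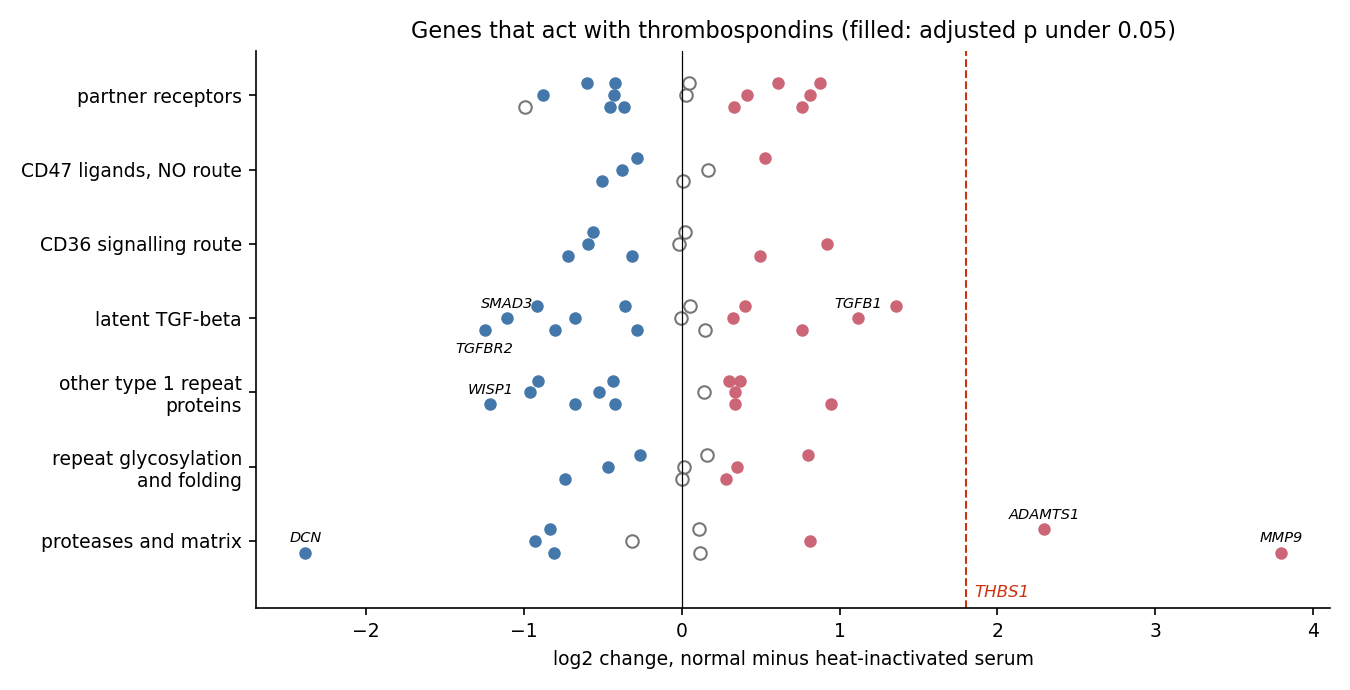
Log2 change between normal and heat-inactivated serum (x axis) of the tested genes in 7 lists chosen around thrombospondins (rows), with 2 genes that are not reported left out. Filled points passed an adjusted p of 0.05 (red higher, blue lower), open points did not, and the dashed line marks THBS1 at 1.80. ADAMTS1 and MMP9 lie to the right of THBS1, and every list holds genes on either side of 0.

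Results for the 4 tested members did not depend on the library left out. Setting the libraries to equal FPKM totals moved the median log2 change of all genes from 0.01 to -0.12 and the share of calls that were higher from 51.6% to 34.7%, and the members then stood 1.78 (THBS1), -0.44 (THBS2), -0.49 (THBS3) and -0.51 (CD47) from that median, against 1.79, -0.43, -0.48 and -0.50 before. Quantile normalization placed them at 1.55, -0.41, -0.59 and -0.69 from its median of -0.02, so the 3 falls lay further apart under it.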

How the data were processed

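Polyadenylated RNA of 3 libraries per treatment was measured. Per the submitters' processing notes, the tools were Cuffdiff 2.1.1, Cufflinks 2.1.1 and TopHat2 2.0.7. The genome build was not given in the sources used here. Deposited by the authors was a table of FPKM per transcript and library, FPKM per treatment, and for each transcript their own q-value, p-value and log2 fold change. FPKM was summed per symbol over 44605 transcripts, and 246 of the 7008 identifiers that lacked a symbol were named from a gene table.

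A count model does not apply to FPKM, so genes averaging 1 FPKM or more were tested as log2(FPKM + 1) by limma 3.58.1, run in R 4.3.3 (trended variance, Benjamini-Hochberg over all genes), after the script was tested on simulated data. Such changes understate those of low genes. Folds are ratios of mean FPKM. Ratios and shares were compared by exact permutation over libraries (scipy 1.17.1). Depth was read from low values of single-transcript genes, with whole fragments counted within 0.1. Fragment limits cover counting error only.

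The members and lists were chosen with earlier results of these data known. Named genes were all members, the 4 list genes with the smallest adjusted p below 0.05 in each list (or the 2 highest where none passed), and the 3 nearest profiles of each tested member. Other names are marked, and some genes that meet the rule are not reported here. Alternatives varied the pseudocount, filter, scaling, variance model, summing of transcripts, libraries and block. Tests of single transcripts, and the lists and named genes under each alternative, were chosen after seeing the data. No sequences were printed.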

Additional observations from a re-analysis of the deposited data

How the results depend on the processing

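The calls of THBS1, THBS2, THBS3 and CD47 and their directions held under each of the 18 alternative settings run. The log2 change ranged from 1.53 to 1.84 for THBS1, from -0.59 to -0.35 for THBS2, from -0.64 to -0.41 for THBS3 and from -0.71 to -0.43 for CD47, with adjusted p up to 8.66e-05, 0.0176, 0.0113 and 0.00662. Among the transcripts tested alone, the THBS3 transcript of 2988 bases (0.73) and the CD47 transcript of 1397 bases (0.15) had the opposite sign to their gene and did not pass. With log2(FPKM + 0.1) the untested differences of THBS4 and COMP became 0.42 and 0.38, by construction, since a smaller pseudocount enlarges low values. For these genes the stricter filter, quantile normalization and other variance models gave no value, as they have no test. Genes called higher numbered 3291, and 1949 or 2159 (33.0% of calls) with totals equalised over all transcripts or over those of at least 300 bases. The cause was not tested. Within replicates 2 and 3 the THBS1 share differed by 15.8 percentage points instead of 16.4. Of the 40 named genes that are not members, 35 kept call and direction under every alternative that gave a value, and the report gives the others. With a mean of at least 5 FPKM the type 1 repeat list had 3 higher and 3 lower calls.

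Equal replicate numbers did not pair the libraries throughout: deviations from the treatment means correlated at 0.193, 0.0328 and 0.00689 for numbers 1, 2 and 3, and each replicate 1 library correlated best with the other, while replicates 2 and 3 did not correlate best with their own number. With a replicate block 6770 genes were called in place of 6381, and the THBS1 change stayed at 1.80 (limma, adjusted p = 4.96e-05). When the model instead set only replicate 1 apart, 7063 genes were called, and THBS1 had an adjusted p of 4.82e-06. No call of a member changed under either. At this depth 1 to 5 fragments per library stood behind COMP and 0 to 3 behind THBS4, so neither can be compared between treatments.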
